A study of Mus musculus with 11 samples.

Results

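Gene expression in organoids grown from tumours of RAG2KO mice was compared with that in naive AKP organoids, which had not been transplanted, over 13720 of the 23224 listed genes, those with enough counts to be tested. The comparison used 6 of the 11 libraries of the series, 3 RAG2KO tumour-derived and 3 naive. All were mouse colon cancer organoids of the AKP genotype, in which cancer genes including Apc and Trp53 are altered. For the RAG2KO group, organoids had been placed in the colon of immunodeficient recipients through a colonoscope, the primary tumours had been put back into culture, and the cultures had been passaged until, by the submitters' account, cancer cells alone remained. RAG2KO mice lack mature T and B cells and keep innate immune cells such as macrophages and natural killer cells. The naive organoids had seen no host. The other libraries of the series came from tumours of C57Bl6 mice (3) and from a constitutive and an inducible SOX17 overexpression line (1 each). They entered the fit for its shared estimate of the spread. No time in the host, number of passages or source animal is given in the sources used here. The tumour libraries carry different numbers in their titles, but nothing states that they, or the naive replicates, came from separate animals or cultures, so p-values measure only the spread between these samples.

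Library totals were 15412611 to 17656757 expected counts in RAG2KO and 14109182 to 22154456 in naive organoids. Values are CPM, counts scaled to TMM library size, listed in the order of replicates 1, 2 and 3. Rn45s, the precursor of ribosomal RNA, took a larger share of counts in RAG2KO libraries, 6.56 to 8.54% against 2.42 to 4.99% in naive libraries. RAG2KO replicate 2 stood somewhat apart, with 1189 genes at least 2-fold from replicate 1 and 1203 from replicate 3, while replicates 1 and 3 had 699 such genes between them and pairs of naive libraries 69 to 418. The epithelial label held: 10 epithelial markers summed to 10204 to 11018 CPM in RAG2KO and 10378 to 12514 CPM in naive libraries, and none was at 0. Of these 10, 3 passed the test below as lower in RAG2KO organoids, where 13.3% of all genes did, and 0 as higher. Their median log2 fold change was -0.38. Of 15 lymphoid markers 6 were at 0 in all 6 libraries (Cd3g, Nkg7, Gzma, Gzmb and Ncr1 among them), and the list summed to 0.876 to 1.56 CPM in RAG2KO and 0.786 to 1.36 CPM in naive libraries. The macrophage markers Emr1, Tyrobp, C1qa and C1qb were at 0 in all 6, and the 15 myeloid markers summed to 67.5 to 101 CPM in RAG2KO and 53.9 to 78.4 CPM in naive libraries. Of the 8 myeloid markers with enough counts to be tested, Csf1r, Cd14 and Fcgr3 passed the test below as higher in RAG2KO organoids, where 16.0% of all genes did. Fcgr3, an Fc receptor, had 1.55, 0.934 and 0.249 CPM in RAG2KO against 0 in each naive library, at least 5.59-fold above a floor of 3 counts per library (at least 3.63-fold without RAG2KO replicate 1), and was the 1 whose call held in all 3 RAG2KO libraries. The part of such cells in the results was not tested. These were bulk samples, in which fewer cells of a type and less RNA per cell cannot be told apart.

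An epithelial cancer cell that leaves a culture dish for a tumour meets other supplies of nutrients, matrix and cytokines, and some of what it then expresses may persist when it is cultured again. Amino acid shortage and stress of the endoplasmic reticulum act through the transcription factor ATF4, which turns on genes for amino acid synthesis, uptake and tRNA charging. Interferons act through receptor-bound kinases and IRF factors to turn on antiviral genes and the genes that present peptides on MHC class I.

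Of the 13720 genes, 4010 passed the test between RAG2KO and naive organoids (29.2%), 2192 of them higher in RAG2KO (16.0%) and 1818 lower (13.3%), by edgeR's quasi-likelihood test with a Benjamini-Hochberg adjusted p under 0.05. A change was counted as held in all 3 tumour-derived libraries when the gene passed, when each RAG2KO library lay beyond all 3 naive libraries on that side, and when it still passed with any 1 RAG2KO library left out. By this rule 1302 genes held as higher (9.49%) and 856 as lower (6.24%), 15.7% of genes together. The held rises were the larger changes, with a median log2 fold change of 1.80, and 672 of them were at least 2-fold and 70 at least 8-fold in each library. The held falls had a median of -0.89, and 174 were at least 2-fold and 2 at least 8-fold in each library. Replicate 2 was the most extreme of the RAG2KO libraries for 758 of the 1302 held rises and 442 of the 856 held falls.

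Of the 1852 genes that passed but did not hold, 81 overlapped between the groups and the call of the others ended with 1 of the RAG2KO libraries left out. Leaving out RAG2KO replicate 2 ended 1624 calls, against 846 for replicate 1 and 987 for replicate 3. For 451 genes it was the only one of the 3 whose removal ended the call, against 52 for replicate 1 and 70 for replicate 3. Without RAG2KO replicate 2 the test called 2467 genes, and without naive replicate 2 it called 2031.

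The ATF4 and amino acid genes were the list that fell in the largest share of its members among the lists examined. All 26 members were tested, 21 fell (13.3% of all genes did) and 19 held (6.24% of all genes), and the 5 that did not pass were Ddit4, Slc7a11, Slc1a5, Slc1a4 and Vldlr, with log2 fold changes of -0.38 to 0.40. The median log2 fold change was -0.95, against 0.02 over all genes. Relative to the naive mean, on the log2(CPM + 0.5) scale, the list's median was -0.99, -1.15 and -0.71 in the 3 RAG2KO libraries. With any 1 library left out, 19 to 22 members fell.

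Slc7a5, the light chain of the large neutral amino acid transporter, had 67.5, 69.5 and 66.8 CPM in RAG2KO against 143, 199.8 and 191 CPM in naive organoids (log2 fold change -1.39, SE 0.14, adjusted p = 0.000231). Slc7a1, the transporter of arginine and lysine, had 54.0, 61.8 and 56.8 CPM against 139, 139 and 164 CPM in naive organoids (-1.36, SE 0.12, adjusted p = 0.000163). Neither set of libraries overlapped, and for both genes the RAG2KO libraries lay closer together than the naive ones. Mthfd2, the mitochondrial folate enzyme that feeds purine synthesis, had 85.5, 76.8 and 99.2 CPM in RAG2KO against 252, 214 and 218 CPM in naive organoids (-1.39, SE 0.13, adjusted p = 0.000211). Shmt2, which splits serine into glycine and a folate-bound carbon, had 103, 75.1 and 106 CPM against 254, 274 and 257 CPM in naive organoids (-1.47, SE 0.15, adjusted p = 0.000284). The serine synthesis gene Psat1 was at 229, 175 and 256 CPM against 505, 465 and 438 CPM in naive organoids (-1.09, SE 0.15). These transporters and enzymes were each lower in every RAG2KO library than in any naive one.

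Trib3, a pseudokinase and a standard readout of ATF4 activity, fell most within the list, with 26.6, 33.0 and 36.3 CPM in RAG2KO against 115, 111 and 145 CPM in naive organoids (log2 fold change -1.95, SE 0.22, adjusted p = 0.000491). Chac1, an enzyme that degrades glutathione, had 13.5, 13.5 and 21.95 CPM against 41.7, 41.0 and 52.8 CPM in naive organoids (-1.47, SE 0.20, adjusted p = 0.00117). Asns, the asparagine synthetase, had 169, 169 and 224 CPM in RAG2KO against 460.1, 411 and 459 CPM in naive organoids (-1.24, SE 0.17, adjusted p = 0.00108). For these 3 genes RAG2KO replicate 3 was the highest of its group and still below every naive library. The aminoacyl-tRNA synthetases fell less, Aars by 0.77 (SE 0.13, adjusted p = 0.00252) and Gars by 0.53 (SE 0.12, adjusted p = 0.0121) on the log2 scale. The Atf4 transcript itself was at 415, 435 and 471 CPM in RAG2KO against 733, 712 and 736 CPM in naive organoids (-0.72, SE 0.11, adjusted p = 0.00196). Sesn2 and Sars passed without holding.

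**Figure D1:**
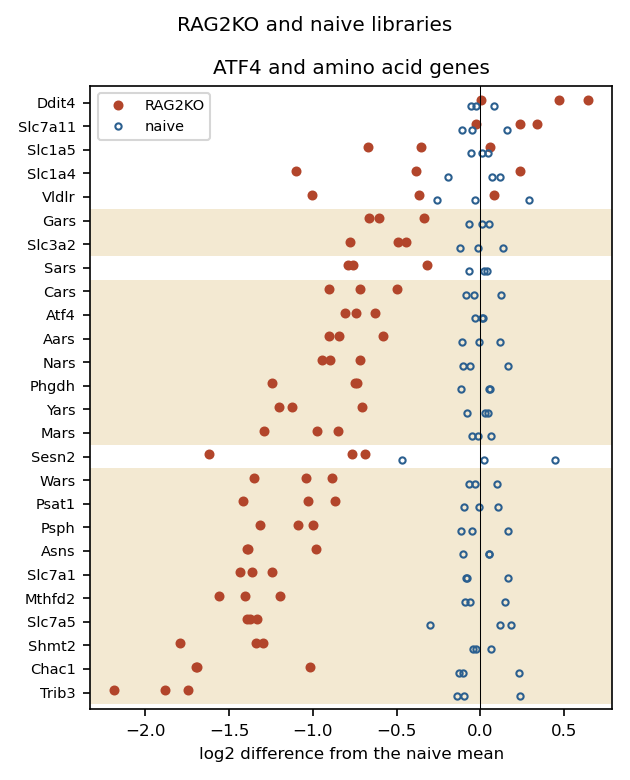
Each of the 26 ATF4 and amino acid genes is a row, with filled points for the 3 RAG2KO and open points for the 3 naive libraries, and the horizontal axis is the log2 difference from the naive mean of log2(CPM + 0.5). Shaded rows are the 19 held genes, and their RAG2KO points lie left of all naive points. Rows run from Ddit4 at the top to Trib3 at the bottom, by fitted fold change.

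Promoter sequence was examined for the letters of the element that ATF4 and its C/EBP partners are known to bind, TGATGNAA on either strand, a motif chosen after the fall of these genes was seen. Promoters are the 250 bases before the start in RefSeq's mouse table for GRCm38.p6, and 10802 of the tested genes had one there. The motif was in 6 of the 21 list members with a promoter (28.6%) and in 270 of all 10802 genes (2.5%). It was in 27 of 1004 held rises (2.69%) and 21 of 689 held falls (3.05%). Of the 15 held list members with a promoter 4 carried the motif (26.7%), a share close to that of the whole list. These 4 are shown as windows of 60 bases, 5′ to 3′ on the gene's strand. The motif is in capitals, to let its place and neighbours be compared. The Asns window is at chr6:7693210-7693269 on the minus strand, Chac1 at chr2:119351023-119351082 on the plus strand, Gars at chr6:55037941-55038000 on the plus strand and Aars at chr8:111033704-111033763 on the plus strand.
Asns: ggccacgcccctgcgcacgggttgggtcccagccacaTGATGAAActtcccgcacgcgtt
Chac1: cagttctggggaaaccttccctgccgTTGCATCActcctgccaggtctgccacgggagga
Gars: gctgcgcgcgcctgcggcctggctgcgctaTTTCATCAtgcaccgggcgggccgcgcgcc
Aars: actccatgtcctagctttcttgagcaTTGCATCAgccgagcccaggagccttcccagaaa
In Asns the match reads along the gene's strand and began 23 bases before the start. In Gars it was on the other strand and began 30 bases before the start, and in Aars and Chac1, also on the other strand, it began 112 and 193 bases before. A match is a description of letters and not of a bound site.

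Chaperones and folding enzymes of the endoplasmic reticulum fell beside the amino acid genes. Of 21 unfolded protein response genes 12 fell (13.3% of all genes did) and 7 held, with a median log2 fold change of -0.63. With any 1 library left out 8 to 10 fell (8 without RAG2KO replicate 2 or naive replicate 2). Hspa5, the chaperone BiP, had 1015, 1011 and 967 CPM in RAG2KO against 1990.5, 1684 and 2696 CPM in naive organoids (log2 fold change -1.09, SE 0.24, adjusted p = 0.00864). Hyou1, its co-chaperone, had 104, 91.4 and 105 CPM against 178, 185 and 225 CPM in naive organoids (-0.97, SE 0.14, adjusted p = 0.00162). Hsp90b1 fell by 0.63 (SE 0.12) and Creld2 by 0.68 (SE 0.14) on the log2 scale. In each of these genes the groups did not overlap. Ddit3, the factor CHOP that both stress pathways induce, was at 30.5, 60.4 and 57.3 CPM in RAG2KO and 101, 68.8 and 164 CPM in naive organoids and did not pass (-1.17, SE 0.44, adjusted p = 0.0749). The mitochondrial chaperones Hspa9 (-1.01, SE 0.15) and Hspd1 (-0.97, SE 0.20) also held as lower, while the small heat shock protein gene Hspb1 held as higher with 38.1, 132 and 45.3 CPM against 6.0, 4.29 and 5.82 CPM in naive organoids (3.75, SE 0.61; 2.96 without RAG2KO replicate 2).

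Type I interferon induced genes were the list with the most members higher. All 32 were tested, 22 rose (16.0% of all genes did) and 18 held (9.49% of all genes), with a median log2 fold change of 2.22. With a library left out 17 to 22 rose, 17 without naive replicate 2. The size differed between the RAG2KO libraries, with list medians of 0.67, 1.94 and 1.35 on the log2(CPM + 0.5) scale relative to the naive mean, so that replicate 1 was the lowest.

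Ifitm3, which blocks entry of viruses through endosomes, had 745, 483 and 757 CPM in RAG2KO against 3.57, 3.90 and 0.715 CPM in naive organoids (log2 fold change 7.94, SE 0.63, adjusted p = 0.000127). Ifitm2, of the same family, had 571, 304 and 452 CPM against 62.8, 79.1 and 45.8 CPM in naive organoids (2.82, SE 0.31, adjusted p = 0.000438). Replicate 2 was the lowest RAG2KO library for both. Usp18, which removes ISG15 from proteins and restrains the interferon receptor, had 23.5, 58.3 and 54.7 CPM in RAG2KO against 0.643, 0.745 and 0.810 CPM in naive organoids (5.93, SE 0.75, adjusted p = 0.000994). Isg15, the ubiquitin-like modifier, had 7.75, 38.0 and 19.9 CPM against 2.001, 3.33 and 6.05 CPM in naive organoids (2.51, SE 0.57, adjusted p = 0.0109). Oas1a, a sensor of double-stranded RNA, had 15.8, 30.4 and 14.7 CPM against 2.14, 2.498 and 2.67 CPM in naive organoids (3.05, SE 0.36, adjusted p = 0.000562). For Usp18 and Isg15 replicate 1 was the lowest RAG2KO library, and for Isg15 it lay only just above the highest naive one. The Ifitm and Oas families have similar sequences, so the counting may have divided reads between members.

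The interferon receptor and signalling genes moved less as a list. Of 17 tested 5 rose (16.0% of all genes did) and 4 held (9.49% of all genes), with a median log2 fold change of 0.33. Irf1 had 103, 96.8 and 97.0 CPM in RAG2KO against 33.6, 32.3 and 29.8 CPM in naive organoids, a narrow spread in both groups. Irf9, a DNA-binding subunit of the complex that type I interferon activates, had 17.99, 55.5 and 42.3 CPM against 7.15, 9.77 and 10.01 CPM in naive organoids (log2 fold change 2.10, SE 0.35, adjusted p = 0.00302). Of 21 tested interferon gamma induced genes 9 rose and 2 fell (16.0% and 13.3% of all genes did), with 7 and 1 held. Without naive replicate 2, 6 of them rose. Parp14 (2.34, SE 0.27), Parp9 (1.77, SE 0.18) and the GTPase gene Irgm2 (3.95, SE 0.65; 3.14 without RAG2KO replicate 2) were among the held rises. Cxcl10, a chemokine that interferon gamma induces in most cells, was lower, with 2.43, 5.43 and 4.12 CPM in RAG2KO against 10.2, 12.1 and 18.6 CPM in naive organoids (-1.77, SE 0.51, adjusted p = 0.0278), and its call did not hold without RAG2KO replicate 1 or 3.

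MHC class I genes rose in 15 of 26 tested members (16.0% of all genes did) and 7 held, with a median log2 fold change of 0.97. The count was less stable than that of the interferon list: 8 members rose without RAG2KO replicate 3, and 9, 7 and 8 rose without naive replicates 1, 2 and 3. B2m, the light chain, had 80.4, 107 and 72.2 CPM in RAG2KO against 33.6, 34.2 and 32.3 CPM in naive organoids. Psme1, a proteasome activator subunit, had 119.6, 124 and 104 CPM against 39.6, 41.0 and 36.0 CPM in naive organoids (1.57, SE 0.12, adjusted p = 6e-05). Tapbp, the bridge between the peptide transporter and the class I heavy chain, had 27.8, 44.3 and 28.4 CPM against 9.01, 7.76 and 9.06 CPM in naive organoids (1.96, SE 0.20, adjusted p = 0.000307). In all 3 genes the groups were far apart. The classical heavy chains stayed closer, H2-K1 with 424, 448 and 532 CPM in RAG2KO and 372, 392 and 422 CPM in naive organoids (0.24, SE 0.13, adjusted p = 0.184) and H2-D1 with a log2 fold change of 0.32 (SE 0.12, adjusted p = 0.0682). Tap1, a subunit of the peptide transporter, was low, with 1.21, 4.96 and 4.68 CPM in RAG2KO and 1.43, 1.88 and 2.43 CPM in naive organoids, which overlapped (0.91, SE 0.56, adjusted p = 0.242). The heavy chain genes share sequence, and their counts may be divided between copies.

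**Figure D2:**
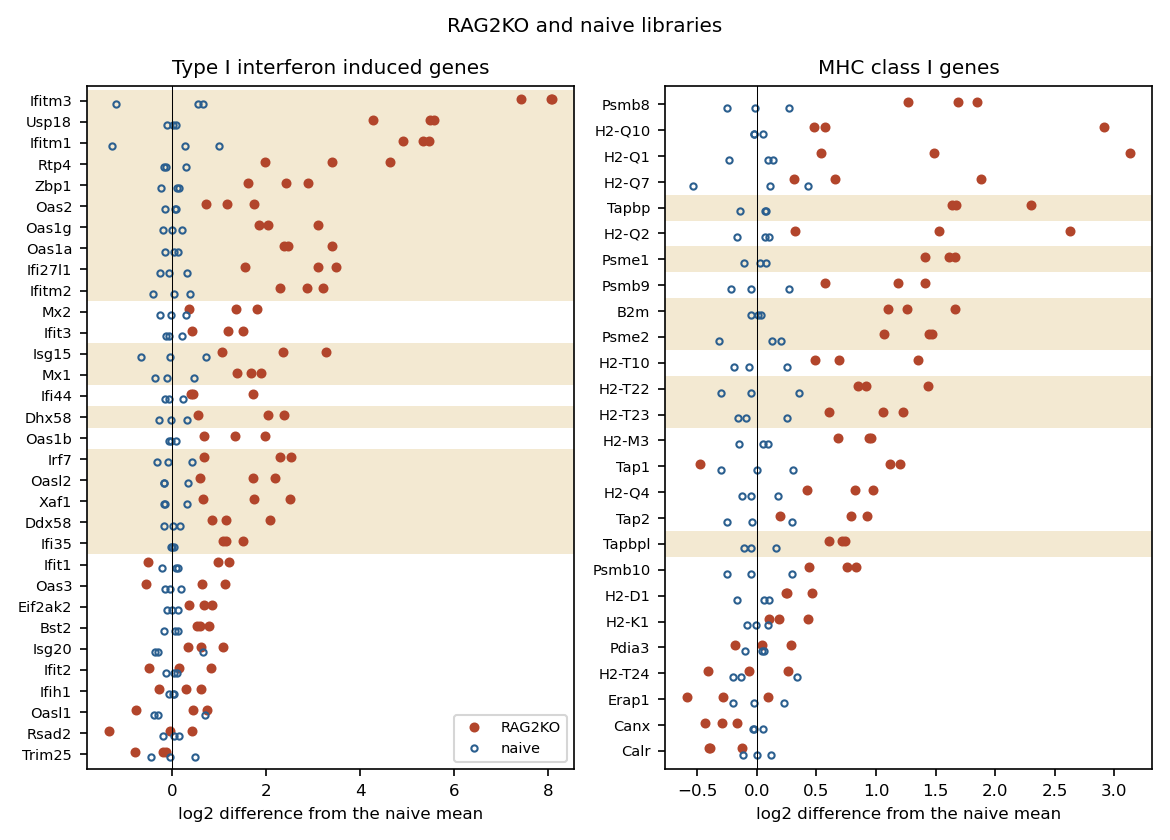
Rows are the 32 type I interferon induced genes (left) and 26 MHC class I genes (right), with filled points for RAG2KO and open points for naive libraries, on the log2 difference from the naive mean of log2(CPM + 0.5). Shaded rows are held genes, 18 on the left and 7 on the right.

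The letters GAAA, any 2 bases and GAAA again, found in elements that interferon-activated factors bind, were on either strand in a promoter of 331 of the 10802 genes that had one (3.06%). They were in 9 of 23 type I interferon genes with a promoter in the table (39.1%), in 47 of 1004 held rises (4.68%) and in 21 of 689 held falls (3.05%). Of the held type I members with a promoter 3 of 10 carried them, and of the held MHC class I members 3 of 6. Windows of 60 bases are shown for these 3 interferon genes and for B2m, with 1 match in capitals, so that its distance from the start can be set beside the values above. They are at chr4:156200862-156200921 for Isg15, chr5:120907526-120907585 for Oas1a and chr7:140955973-140956032 for Ifitm2, all on the minus strand, and chr2:122147523-122147582 on the plus strand for B2m (GRCm38.p6).
Isg15: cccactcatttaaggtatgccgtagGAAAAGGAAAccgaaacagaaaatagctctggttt
Oas1a: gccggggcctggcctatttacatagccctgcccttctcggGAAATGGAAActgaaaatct
Ifitm2: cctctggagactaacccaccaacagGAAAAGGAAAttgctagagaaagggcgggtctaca
B2m: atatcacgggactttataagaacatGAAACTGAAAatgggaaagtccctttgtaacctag
The capitals began 78, 20, 46 and 139 bases before the start in Isg15, Oas1a, Ifitm2 and B2m. Isg15 held 2 further matches and Oas1a 1, each overlapping the match before it.

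The largest held rises were of genes near or at 0 counts in naive organoids. Ifitm3, above, was 1 of the 10 largest and Sox17, a SOXF factor of the endoderm, another, with 22.2, 15.4 and 24.4 CPM in RAG2KO against 0.214, 0.0438 and 0.0477 CPM in naive organoids. Palmd, a palmdelphin, had 35.9, 24.8 and 16.2 CPM in RAG2KO against 2 naive counts in all. It was 732-fold higher by ratio, with a 95% counting range of 202 to 6051 (adjusted p = 6.4e-05). Cyba, the p22phox subunit of NADPH oxidases, had 29.2, 63.2 and 68.6 CPM against 0.143, 0.131 and 0.191 CPM in naive organoids (log2 fold change 8.37, SE 0.47, adjusted p = 1.77e-05). Cyp27a1, a sterol hydroxylase, had 11.1, 9.98 and 29.5 CPM against 2 naive counts (adjusted p = 0.000612). The ratio was 486, with a counting range of 134 to 4023, and it became 303 without RAG2KO replicate 3, 294 without naive replicate 2 and 737 without naive replicate 1. Igfbp4, which binds insulin-like growth factors, had 20.3, 33.6 and 20.4 CPM against 1 naive count. In these genes every RAG2KO library was far above every naive one.

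Others of the 10 leaned on replicate 2 while holding in all 3. Ppbp, a platelet chemokine, had 8.15, 65.9 and 1.81 CPM in RAG2KO against 0.0715, 0.0876 and 0.0953 CPM in naive organoids, and its log2 fold change of 8.08 (SE 1.73, adjusted p = 0.00922) was 5.74 without RAG2KO replicate 2. C77370 had 3.504, 23.2 and 2.37 CPM against 0 in each naive library, at least 59.6-fold above a floor of 3 counts per library and at least 18.02-fold without RAG2KO replicate 2 (adjusted p = 0.00647). Serpinh1, a collagen chaperone, had 1.75, 17.1 and 2.87 CPM against 0 in each naive library, at least 44.3-fold above the floor and at least 14.2-fold without RAG2KO replicate 2; its call (adjusted p = 0.0186) ended without naive replicate 2 or 3. Tmem150c had 3.98, 8.17 and 3.74 CPM against 0 in each naive library, at least 32.5-fold above the floor (adjusted p = 0.000332).

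Among the largest held falls, Prkaa2, the alpha2 catalytic subunit of the energy sensor AMPK, had 1.01, 1.46 and 1.25 CPM in RAG2KO against 11.4, 14.8 and 21.3 CPM in naive organoids (log2 fold change -3.66, SE 0.35, adjusted p = 0.000189). Grb10, an adaptor that restrains insulin receptor signalling, had 0.876, 0.584 and 2.12 CPM against 11.7, 10.4 and 15.2 CPM in naive organoids (-3.37, SE 0.47, adjusted p = 0.00119; -4.09 without RAG2KO replicate 3). Ereg, a ligand of the EGF receptor, had 1.28, 7.07 and 1.19 CPM against 26.4, 25.8 and 78.9 CPM in naive organoids (-3.77, SE 0.75, adjusted p = 0.00701). Its fall was -5.14 without RAG2KO replicate 2 and -3.03 without naive replicate 3. Upk1b, a uroplakin, had 0.270, 0.409 and 0.437 CPM against 6.72, 7.32 and 9.44 CPM in naive organoids (-4.37, SE 0.93, adjusted p = 0.00821). Cma1, a chymase best known from mast cells, had 6.67, 7.9996 and 19.8 CPM against 146, 179 and 82.8 CPM in naive organoids (-3.56, SE 0.54, adjusted p = 0.00211; -4.21 without RAG2KO replicate 3). Mrc1, Cdh4, Rundc3b, Arhgap31 and Cyp2c55 completed the 10, with log2 fold changes of -3.75 to -2.95. The value for Mrc1 was -5.65 and that for Rundc3b -3.88 without RAG2KO replicate 2.

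Intestinal stem cell markers did not move together. Of 17 tested 1 rose and 4 fell (16.0% and 13.3% of all genes did), all 5 of them held. Lgr5, the receptor of R-spondins that marks crypt base stem cells, had 20.2, 8.17 and 22.3 CPM in RAG2KO against 50.9, 71.7 and 50.2 CPM in naive organoids. Ephb2, a crypt ephrin receptor, had 48.5, 38.4 and 69.4 CPM against 158, 192 and 218 CPM in naive organoids (log2 fold change -1.86, SE 0.23, adjusted p = 0.000683), and the polycomb gene Bmi1 had 30.9, 29.1 and 19.8 CPM against 64.1, 63.7 and 52.6 CPM in naive organoids (-1.18, SE 0.19, adjusted p = 0.00224). Of 22 Wnt target genes 8 rose and 2 fell, all of them held, and among those that rose Dkk2, Notum and Wif1 encode secreted antagonists of the pathway. Dkk2 had 286, 479 and 296 CPM in RAG2KO against 13.1, 12.4 and 10.4 CPM in naive organoids (4.89, SE 0.32, adjusted p = 3.45e-05). Notum, an enzyme that inactivates Wnt proteins, had 259, 316 and 226 CPM against 22.3, 22.9 and 10.1 CPM in naive organoids (3.86, SE 0.46, adjusted p = 0.000765). Myc, on the same list, held as lower, with 80.8, 66.6 and 82.5 CPM against 155, 163 and 221 CPM in naive organoids (-1.23, SE 0.16, adjusted p = 0.000773).

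Of 16 tuft cell genes 8 were tested and 4 rose and held, as did 9.49% of all genes. In the other lineage lists, of 19 tested absorptive genes 1 rose and 6 fell, of 13 goblet cell genes 2 rose and 2 fell, and of 5 enteroendocrine genes 1 rose. Of all genes 16.0% rose and 13.3% fell, shares near those of the goblet and enteroendocrine lists. Cd24a, a surface glycoprotein that tuft cells carry among others, had 759, 819 and 627 CPM in RAG2KO against 60.8, 63.7 and 37.0 CPM in naive organoids (log2 fold change 3.77, SE 0.24, adjusted p = 2.59e-05). Avil, the actin-binding advillin, had 111, 149 and 126 CPM against 5.22, 2.89 and 5.86 CPM in naive organoids (4.80, SE 0.32, adjusted p = 3.45e-05), and Ptgs1, a prostaglandin synthase, rose by 4.32 (SE 0.39). The tuft cell regulator Pou2f3 and the channel Trpm5 had too few counts to be tested. Of 25 gastric and foregut genes 17 were tested, 8 rose and 7 held. Onecut2, a factor of foregut derivatives, had 47.3, 22.5 and 50.1 CPM against 0.929, 0.833 and 0.953 CPM in naive organoids (5.46, SE 0.54, adjusted p = 0.000308). Ctse, a stomach protease, had 31.0, 98.3 and 29.1 CPM against 0.0715, 0.263 and 0.667 CPM in naive organoids (7.18, SE 1.02, adjusted p = 0.00162; 6.37 without RAG2KO replicate 2 and 8.09 without naive replicate 3).

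Keratins and homeobox genes shifted as well. Of 13 tested keratins 7 rose and 1 fell (16.0% and 13.3% of all genes did), with 6 and 1 held. Krt15, a basal keratin, had 93.3, 84.8 and 84.3 CPM in RAG2KO against 5.93, 4.996 and 2.67 CPM in naive organoids (log2 fold change 4.28, SE 0.26, adjusted p = 2.13e-05). Krt7, abundant in both, had 2907, 3317 and 2625 CPM against 1434, 1268 and 1336 CPM in naive organoids (1.13, SE 0.18), while the simple epithelial keratin Krt8 fell by 0.77 (SE 0.14). Of 20 tested Hox genes 9 rose and 7 held, among them Hoxa10 with 146, 122 and 102 CPM against 36.0, 36.5 and 49.6 CPM in naive organoids (1.59, SE 0.20, adjusted p = 0.000712), Hoxa11 (1.98, SE 0.27) and Hoxa7 (1.26, SE 0.20). Cdx2, the homeobox factor of intestinal identity, held as lower, with 54.7, 38.3 and 52.5 CPM in RAG2KO against 99.3, 109.8 and 146 CPM in naive organoids (-1.29, SE 0.20, adjusted p = 0.00181). It was the held member among 18 identity genes, of which 5 fell; 1 fell without RAG2KO replicate 1 or 2 or naive replicate 3, 2 without naive replicate 1 or 2, and 8 without RAG2KO replicate 3. The list of fetal and regenerating gut epithelium had 11 rises among 22 tested members, of which 9 held, with Msln at 237, 427 and 226 CPM against 52.9, 39.4 and 70.7 CPM in naive organoids (2.45, SE 0.31, adjusted p = 0.000804) and clusterin, Clu, at 178, 249.6 and 108 CPM against 16.0, 11.3 and 14.7 CPM in naive organoids (3.68, SE 0.47, adjusted p = 0.00104).

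Secreted factors and matrix genes rose with wide spreads that mostly came from replicate 2. Matrix and mesenchymal genes rose in 14 of 33 tested members and fell in 2 (16.0% and 13.3% of all genes did), with 9 rises held. The list medians were 0.43, 1.98 and 0.44 on the log2(CPM + 0.5) scale in the 3 RAG2KO libraries. The number that rose was 9 without RAG2KO replicate 2 and 8, 6 and 7 without naive replicates 1, 2 and 3. The 13 fibroblast and muscle markers summed to 3.10, 12.3 and 2.56 CPM in RAG2KO and 1.49 to 1.86 CPM in naive libraries, highest in the same replicate 2, and Des was at 0 in all 6; their part in the result was not tested. Thbs1, thrombospondin, had 202, 212 and 96.3 CPM in RAG2KO against 12.01, 15.8 and 11.2 CPM in naive organoids (log2 fold change 3.71, SE 0.41, adjusted p = 0.000558). Timp3, a metalloprotease inhibitor, had 31.0, 137 and 28.8 CPM against 0.858, 0.307 and 0.429 CPM in naive organoids (7.04, SE 0.93, adjusted p = 0.00118; 5.90 without RAG2KO replicate 2). Both sets were far above the naive libraries even in the lowest replicate.

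Chemokine and cytokine genes rose in 10 of 26 tested members, fell in 1, and 7 rises held. The neutrophil chemokine Cxcl5 had 60.3, 213 and 4.86 CPM in RAG2KO against 0.858, 1.14 and 0.763 CPM in naive organoids (log2 fold change 6.63, SE 1.26, adjusted p = 0.00571; 5.12 without RAG2KO replicate 2). Tnf had 17.8, 30.8 and 12.8 CPM against 3.43, 4.47 and 4.24 CPM in naive organoids (2.33, SE 0.33, adjusted p = 0.00134). Among ligands that restrain immune cells, 4 of 20 tested rose and held and 1 fell, where 16.0% of all genes rose and 9.49% held as higher. Lgals9, a galectin, had 36.9, 44.1 and 53.3 CPM in RAG2KO against 3.86, 3.64 and 3.29 CPM in naive organoids (3.64, SE 0.25, adjusted p = 3.45e-05), and Vtcn1, a B7 family member, had 29.6, 38.5 and 17.3 CPM against 1.501, 1.40 and 2.19 CPM in naive organoids (4.06, SE 0.33, adjusted p = 8.74e-05). TGF-beta and BMP genes rose in 9 of 21 members and 7 held, with log2 fold changes of 1.27 (SE 0.20) for the inhibitor Smad6 and 1.36 (SE 0.21) for the target Id2; 6 rose without naive replicate 2. Of 24 YAP and TAZ targets 6 rose and 3 fell (16.0% and 13.3% of all genes did), and 4 of the rises held, Gadd45b by 1.38 (SE 0.15) and Jub, which encodes the LIM protein ajuba, by 0.56 (SE 0.12) on the log2 scale among them. Without naive replicate 2, 3 of these targets rose, and the number that fell was 1 without RAG2KO replicate 3.

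Cell cycle genes were lower, unevenly between libraries. DNA replication genes fell in 16 of 37 members (13.3% of all genes did) and 7 held. The list medians were -0.10, -0.71 and -0.76 on the log2(CPM + 0.5) scale in RAG2KO replicates 1, 2 and 3. The count was 27 without RAG2KO replicate 1, 7 without RAG2KO replicate 2 or 3, and 8 and 7 without naive replicates 1 and 2. Of 32 mitosis genes 19 fell and 2 rose, with 11 and 2 held, and 11 fell without RAG2KO replicate 2 and 12 without naive replicate 2. Pold1, the catalytic subunit of a replicative polymerase, had 29.9, 25.1 and 27.9 CPM in RAG2KO against 52.0, 59.7 and 55.0 CPM in naive organoids (log2 fold change -1.01, SE 0.12, adjusted p = 0.000606). Uhrf1, which maintains DNA methylation through replication, fell by 0.93 (SE 0.14) and the kinetochore gene Cenpf by 1.14 (SE 0.17). Mki67 had 298, 186 and 221 CPM against 568, 543 and 536 CPM in naive organoids (-1.22, SE 0.18, adjusted p = 0.00154). Pttg1, securin, went the other way, with 38.9, 48.5 and 49.2 CPM in RAG2KO against 23.5, 21.6 and 20.5 CPM in naive organoids (1.06, SE 0.14, adjusted p = 0.000999). In each of these genes the groups did not overlap.

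Genes that make ribosomes moved little. Of 49 tested ribosome biogenesis genes 11 fell (13.3% of all genes did) and 1 rose, and 1 of each held: Polr1a, the large subunit of RNA polymerase I, at 42.9, 39.2 and 32.4 CPM in RAG2KO against 62.9, 58.4 and 53.4 CPM in naive organoids (log2 fold change -0.61, SE 0.15, adjusted p = 0.0134), and Taf1b, a polymerase I initiation factor, at 22.9, 22.2 and 16.5 CPM against 9.93, 9.25 and 10.8 CPM in naive organoids (1.04, SE 0.17, adjusted p = 0.0022). The number that fell was 17 without RAG2KO replicate 1, 1 without RAG2KO replicate 2, 3 without replicate 3 and 1 without naive replicate 1 or 2. The 79 ribosomal protein genes had a median log2 fold change of 0.19. Energy genes were mixed: in the glycolysis and hypoxia list 7 of 29 tested members were lower and 3 higher, with the glucose transporter Slc2a1 at 125, 145 and 111 CPM in RAG2KO against 278, 325 and 492 CPM in naive organoids (-1.52, SE 0.22, adjusted p = 0.00151) and Ndrg1, which hypoxia induces, at 152, 204 and 239 CPM against 787, 873 and 1503 CPM in naive organoids (-2.41, SE 0.38, adjusted p = 0.00231). The aldolase Aldoc held as higher (1.37, SE 0.22). The number that fell was 3 without RAG2KO replicate 1 or 2 or naive replicate 2 or 3. Of 29 tested cholesterol and fatty acid genes 6 rose and 2 fell, with the squalene synthase Fdft1 higher by 0.73 (SE 0.10) on the log2 scale. Beside the glycolysis and cholesterol lists, 16.0% of all genes rose and 13.3% fell.

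**Figure D3:**
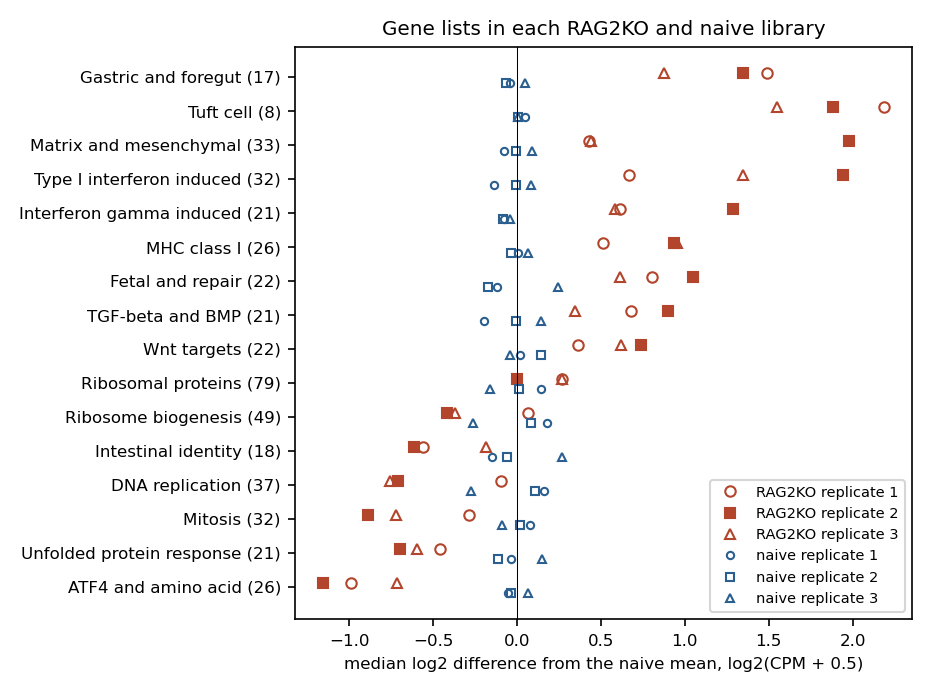
For 16 gene lists, with the number of tested members in brackets, each symbol is the list's median log2 difference from the naive mean of log2(CPM + 0.5) in a library, RAG2KO above and naive below on each row. The ATF4 list lies at -1.15 to -0.71 in all 3 RAG2KO libraries, while the matrix list is at 1.98 in replicate 2 and 0.43 and 0.44 in replicates 1 and 3, and DNA replication is at -0.10 in replicate 1.

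The calls that rested on a single library were the counterpart of the held ones. Among called genes with at least 5 CPM in the higher group, the 5 largest whose call ended without 1 RAG2KO library all depended on replicate 2. Serpine2, a protease inhibitor, had 0.270, 50.7 and 0.312 CPM in RAG2KO against 1 naive count, and Penk, the enkephalin precursor, had 0.741, 29.0 and 0.125 CPM against 1 naive count. In both genes replicate 2 stood far above the other RAG2KO libraries. Fbln2, a matrix fibulin, had 0.809, 30.4 and 1.75 CPM against 0.357, 0.0438 and 0.286 CPM in naive organoids. Col8a1 and Ibsp, both of the matrix, had 16.3 and 15.8 CPM in replicate 2 and under 3 CPM in the others, against 0 counts in each naive library. All 5 calls ended without RAG2KO replicate 2 (adjusted p = 0.0608 to 0.0974) and also without any 1 naive library.

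The Rn45s share was set against these changes because it differed with the groups. It was 6.56, 8.10 and 8.54% of counts in RAG2KO libraries and 4.99, 3.09 and 2.42% in naive libraries, which did not overlap. The means were 7.73 ± 1.04% in RAG2KO and 3.503 ± 1.33% in naive libraries (SD, n = 3 each), a difference of 4.23 percentage points, with an exact two-sided permutation p of 0.1, the smallest that 3 against 3 allows. On the log2 scale the groups differed by 1.20 and naive replicates 1 and 3 by 1.04, so that the share varied almost as much within the naive group. As a gene in the fit, Rn45s rose by 1.22 (SE 0.29, adjusted p = 0.0137), a call that ended without naive replicate 2. The libraries were made with poly(A) selection, and ribosomal RNA carries no poly(A) tail.

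**Figure D4:**
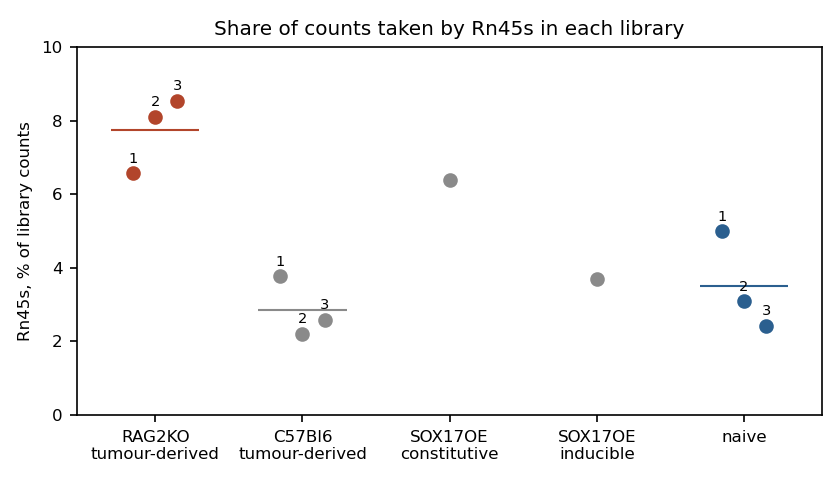
Points are the Rn45s share of counts in each of the 11 libraries, numbered by replicate, and lines are means of groups with 3 libraries. The RAG2KO libraries, at 6.56 to 8.54%, lie above the naive ones at 2.42 to 4.99%, and of the libraries outside the comparison the constitutive SOX17OE line, at 6.39%, comes closest to them.

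The share also differed within the naive group. The held rule placed all naive libraries on the same side of the RAG2KO ones, so differences of held genes between naive libraries are a description. Between naive replicate 1, with the highest share, and replicate 3, with the lowest, the held rises differed by a median of 0.03 on the log2(CPM + 0.5) scale, and 52.5% of them were higher in replicate 1. The held falls differed by a median of -0.13, and 67.4% of them were lower in replicate 1, against 49.9% of all genes tested. Lists differed in this respect. The ATF4 list had a median log2 fold change of -0.95 between RAG2KO and naive organoids and was at -0.11 between these naive libraries, and the type I interferon list was at 2.22 and -0.20. DNA replication was at -0.51 and 0.46 and ribosome biogenesis at -0.27 and 0.44, opposite in sign. Other lists had the same sign in both and differed as much or more between the naive libraries, with intestinal identity at -0.45 between the groups and -0.45 between the naive libraries, ERBB genes at -0.50 and -0.70, junction genes at -0.24 and -0.43, immediate early genes at -0.27 and -0.998 and oxidative phosphorylation at 0.09 and 0.39. Within the RAG2KO group, 12.5% of held rises followed the order of the share over the 3 libraries and 10.8% the reverse order, and 18.3% and 12.6% of held falls, against 17.3% and 16.1% of all genes.

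With the log2 share as a covariate over all 11 libraries, 148 genes were called between RAG2KO and naive (1.08%), 131 higher and 17 lower. The covariate widened the error, with a median SE over all genes of 0.384 with it and 0.208 without it. Taken over many genes the fold changes moved less: all 2158 held genes kept their direction, as did 11452 of all 13720 genes. The held rule had already chosen genes for a steady direction in these same libraries, so their agreement is a description. Rn45s, a held rise, is counted among them although it went from 1.22 to 0.02. The held rises had a median log2 fold change of 1.80 with the covariate and 1.80 without it, the held falls -0.82 with it and -0.89 without it. The regression slope of the covariate fit's values on the others over held genes was 1.03. Of the 2158 held genes 145 stayed called, 128 higher and 17 lower. The slope on the share was called by edgeR for 1 of all genes (0.00729%) and for 0 of the 2158 held genes. Rn45s, itself a held gene, had a slope of 1.055 on its own share that did not pass (adjusted p = 0.22). The test did not call even the gene that defines the share, so the count of 0 cannot show whether held changes follow it. At an unadjusted p under 0.05 the slope passed for 59 of 1302 held rises (4.53%), 18 of 856 held falls (2.10%) and 372 of all 13720 genes (2.71%). Between RAG2KO and naive libraries the share and the groups move together. A change that followed the share and one that followed the group cannot be told apart between them. C57Bl6 libraries, also tumour-derived, had shares of 2.21 to 3.77%, which overlapped the naive ones. For RAG2KO minus C57Bl6, the held rises had a median log2 difference of 0.60 and the held falls of -0.63. Between C57Bl6 and naive organoids Ifitm3 was higher by 7.80 and Cyba by 9.36, while Krt15 differed by 0.24 and Oas1a by 0.94. The part of the share in these values was not tested.

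The gene called for the slope was Rmrp, the RNA of the RNase MRP enzyme that processes ribosomal RNA precursors and which carries no poly(A) tail. It had 47.0, 61.5 and 71.0 CPM in RAG2KO and 41.1, 11.1 and 6.58 CPM in naive libraries, in the order of the Rn45s share in both groups. Its slope was 2.61 per doubling of the share (adjusted p = 0.0153), and it did not pass between the groups (log2 fold change 1.63, SE 0.72, adjusted p = 0.118). A list of histone mRNAs and of nuclear and nucleolar RNAs, several of which are polyadenylated, held Rn45s and Rmrp too. Of its 35 tested members 3 rose and 4 fell between RAG2KO and naive organoids (16.0% and 13.3% of all genes did), with 2 and 1 held. Among the rises was Snord22, at 4.58, 6.19 and 4.80 CPM in RAG2KO against 1.86, 0.789 and 0.763 CPM in naive organoids (2.21 without and 0.76 with the covariate). Between naive replicates 1 and 3 the list's median was 0.74, against 0.00 over all genes.

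Among the 145 held genes still called with the covariate were several described above. Of the ATF4 list 5 members stayed called: Mthfd2 at -1.57 (adjusted p = 0.0200), Trib3 at -2.25, Asns at -1.62, Slc7a1 at -1.29 and Nars at -1.21. Besides these, the 17 falls included the folate enzyme Mthfd1l, the proline synthesis enzyme Aldh18a1 and Prkaa2 (-2.67). Rises that stayed called included Igfbp4, Palmd, Cyba (8.38, adjusted p = 0.00919), Krt15 (3.91), Dkk2 (4.16), Cd24a (3.42), Avil (4.28), Ptgs1 (5.39), Lgals9 (2.85), Vtcn1 (4.46), Hoxa10 (2.23), Hoxa11 (2.82), Irf1 (1.77), Psme1 (1.53) and 3 members of the type I interferon list, Ifitm3 (7.84), Oas1a (3.79) and Ifitm2 (3.09). Sox17 was at 8.07 with the covariate (adjusted p = 0.0981), Lgr5 at -1.91 (adjusted p = 0.173) and B2m at 1.39 (adjusted p = 0.0755), set beside 7.77 (8.62 without naive replicate 1), -1.77 and 1.37 without it. The smallest adjusted p with the covariate belonged to Enah, an actin regulator, with 27.0, 15.7 and 12.97 CPM in RAG2KO against 0.143, 0.175 and 0.0953 CPM in naive organoids (7.82 with and 6.995 without the covariate, adjusted p = 0.00279 with it). Rassf9, of the RASSF family, had the same adjusted p, with 4.77 with and 3.53 without the covariate.

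**Figure D5:**
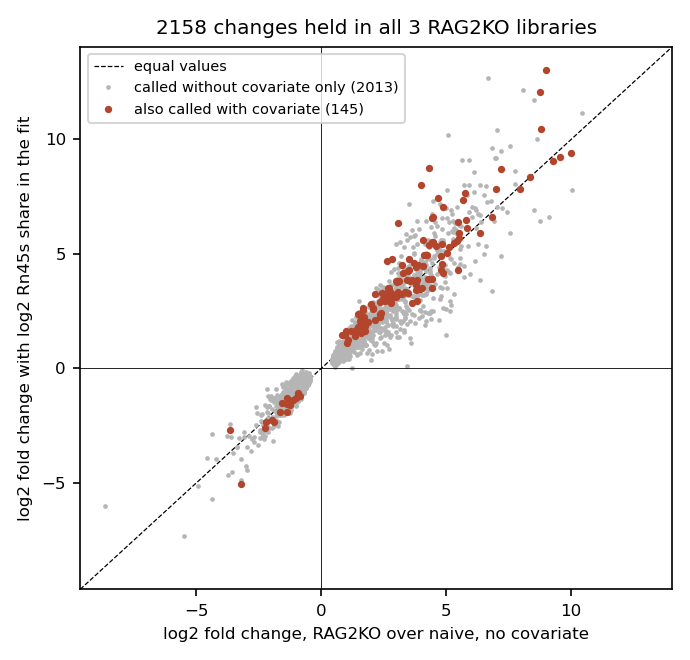
Each point is 1 of the 2158 held genes, with its log2 fold change of RAG2KO over naive on the horizontal axis and the same from the fit with the log2 Rn45s share on the vertical axis. The points lie around the dashed line of equal values, some of them well away from it, with no change of sign. The 145 red points are those still called with the covariate.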

How the data were processed

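RNA was taken from organoids with the PureLink RNA Mini kit and made into libraries with NEBNext Ultra II Directional reagents after poly(A) selection, per the labels. The deposited table holds RSEM expected counts per gene from reads aligned with Bowtie to mm9, per the submitters' processing notes, which give no versions. How reads were divided between similar genes is not given in the sources used here. Of the rows, 25 carried a date in place of a gene name and were kept under that name.

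Expected counts were rounded and fitted with edgeR 4.0.16 in R 4.3.3 (robust quasi-likelihood, TMM, filterByExpr) over all 11 libraries in 5 groups, which share 1 estimate of the spread with 6 residual degrees of freedom. The common dispersion corresponded to a biological coefficient of variation of 25.3%. P-values were adjusted by Benjamini-Hochberg over 13720 genes, with a threshold of 0.05. Library differences used log2(CPM + 0.5), and ratios against few naive counts used 95% counting intervals, which cover counting error only, or a floor of 3 counts per library. The Rn45s share entered as a log2 covariate in a further fit. The fitting step was tested on simulated counts. Other scalings, filters, tools (DESeq2 1.42.0, limma 3.58.1), sets of libraries and single libraries left out were tried.

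Genes were named by rule: a few fixed genes, the 10 largest held rises and falls with at least 5 CPM in the higher group, the first 3 held members of each list by adjusted p, and the 5 largest calls that rest on 1 RAG2KO library. Some of these are left out of the text, a few of them not reported here at all, and other genes named there were chosen after their values were seen. The members and gene lists were chosen with earlier results of these data known. Of 1091 list members 1080 matched the table, 7 under an older symbol, and 931 were tested. Promoter sequence came from RefSeq for GRCm38.p6, used for letters and their own coordinates alone.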

Additional observations from a re-analysis of the deposited data

Results flagged for a closer look

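RAG2KO recipients were set against C57Bl6 recipients, which have T and B cells, for the genes named by rule, and the genes below differed between the tumour-derived groups (edgeR's quasi-likelihood test, RAG2KO minus C57Bl6, Benjamini-Hochberg adjusted p = 7.49e-05 to 0.0485, n = 3 each). Of all genes tested 3295 of 13720 passed this test. Values are log2 differences, and both groups share the naive libraries in their comparisons with naive organoids. Genes named by rule that did not pass between the tumour-derived groups included Ifitm3 at 0.14, Avil at 0.06, Vtcn1 at 0.02, Sox17 at -0.77, Palmd at -0.51, Thbs1 at -0.10 and Cdx2 at -0.08.

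Of the amino acid and folding genes named by rule, those lower in RAG2KO than in C57Bl6 organoids were Slc7a5 at -1.82, Slc7a1 at -1.17, Hyou1 at -0.89, Mthfd2 at -0.75, Hspd1 at -0.72, Hspa9 at -0.68 and Creld2 at -0.50. Of the 26 members of the ATF4 and amino acid list, 17 were lower in RAG2KO than in C57Bl6 organoids, as were 12.2% of all genes. Other genes that were lower were Slc2a1 at -1.46, Ndrg1 at -1.20, Slc39a14 at -1.14, Prkaa2 at -1.07, Uhrf1 at -0.96, Polr1a at -0.93, Pold1 at -0.92, Myc at -0.92, Cenpe at -0.82, Cenpf at -0.69 and Rfc1 at -0.45. Also lower were Aqp5 at -3.88, Igfbp4 at -3.03, Igfbp7 at -2.35, Tgfb3 at -2.21, Clu at -1.79, Lgr5 at -1.68, Ptgs1 at -1.44, Onecut2 at -1.27, Cyba at -0.99, Ephb2 at -0.80 and Jub at -0.74.

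Of the interferon, antigen presentation and cytokine genes named by rule, those higher in RAG2KO than in C57Bl6 organoids were Cxcl15 at 2.71, Oas1a at 2.11, Irf9 at 1.59, Tnf at 1.499, Parp9 at 1.02, Irf1 at 0.79 and Psme1 at 0.55. Of the 32 type I interferon induced genes 13 were higher in RAG2KO than in C57Bl6 organoids, as were 11.8% of all genes. Of 26 MHC class I genes 5 were higher and 1 lower, and of 26 chemokine and cytokine genes 4 were higher. B2m, with a difference of 0.24 (adjusted p = 0.262), and Tapbp, with 0.12 (adjusted p = 0.675), did not pass. Other genes that were higher were Krt15 at 4.04, Mt3 at 3.93, Cyp2c55 at 2.69, Notum at 1.66, Cldn23 at 1.58, Tmem150c at 1.44, Aldoc at 1.34, Dkk2 at 1.13, Pttg1 at 1.11, Smad6 at 0.91, Cox6c at 0.81, Ndufb3 at 0.80, Fdft1 at 0.76, Cd24a at 0.70, Sc5d at 0.58 and Ndufa2 at 0.54. Rn45s was higher by 1.53 and Snord22 by 2.52, and the Rn45s share was 6.56 to 8.54% in RAG2KO and 2.21 to 3.77% in C57Bl6 libraries; its part in these differences was not tested.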

How the results depend on the processing

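With the Rn45s share as a covariate, 148 genes were called over 11 libraries and 141 over the 9 naive, C57Bl6 and RAG2KO libraries, 43 held in either fit, and 145 and 138 of the 2158 held genes stayed called. With a replicate block 1174 genes held, 1153 of them among the 2158. Same-numbered RAG2KO and naive libraries had correlations of deviations of 0.285, -0.184 and 0.091, and differently numbered ones -0.36 to 0.22. With 3 libraries a group these values cannot show whether the numbers pair the samples. With 1 library left out, genes called ranged from 2031 (without naive replicate 2) to 3592, with 2467 without RAG2KO replicate 2, genes held from 909 (without naive replicate 2) to 1492, with 1354 without naive replicate 3, held genes that stayed called from 1908 to 2158, and the difference in Rn45s share from 3.69 to 4.98 points. The cause was not tested, beyond the fewer samples in those fits. Under the other scalings, filters, tools and sets of libraries 1951 to 3001 genes held, and 1917 to 2145 of the 2158 were among them. With upper quartile scaling, which moved the median log2 fold change of all genes to 0.08, 2425 genes were higher and 1461 lower, against 2192 and 1818. Of the genes named by rule, none reversed direction under the alternatives run.

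Low counts limit several of the largest rises, whose naive level rests on 0 to 9 counts over 3 libraries, and 3 libraries a group leave few degrees of freedom.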

Other observations

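The SOX17OE lines, 1 library each, gave a further pair with unlike Rn45s shares, 6.39% in the constitutive and 3.71% in the inducible line, neither of them transplanted. The genes that held as higher in RAG2KO organoids had a median difference of 0.35 between the constitutive and the inducible line on the log2(CPM + 0.5) scale, and 72.5% of them were higher in the constitutive line, against 49.1% of all genes tested. The genes that held as lower had a median of -0.39, and 81.3% were lower in the constitutive line, against 49.7% of all genes. The type I interferon list was at 2.10 and the ATF4 list at -0.78 between these lines. Sox17 was at 72.7 CPM in the constitutive and 4.78 CPM in the inducible line, so the share and Sox17 differ together and cannot be told apart.

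Medians of the log2 difference from the naive mean were taken over the 10414 genes averaging 5 CPM or more in RAG2KO or naive organoids. The medians by chromosome used those of them with a known chromosome and were close to 0 for most chromosomes. The 681 genes of chromosome 5 had medians of -0.18, -0.15 and -0.16 in RAG2KO replicates 1, 2 and 3, against -0.02, -0.07 and -0.05 for all 10414 genes. The 477 genes of chromosome 6 had medians of 0.04, 0.20 and -0.03, and the 359 genes of chromosome 13 had medians of 0.03, -0.24 and -0.11, in the same order.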
